A study of Saccharomyces cerevisiae with 17 samples.

Results

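The small nuclear and nucleolar RNA genes of budding yeast (Saccharomyces cerevisiae) are described here across 4 genotypes. Members were the rows of the deposited table whose name starts with snR, plus LSR1, the gene of the U2 RNA, if listed. The table held 41 such rows among 5326 named genes, and no row for LSR1. By their textbook class, 13 of the 41 are box C/D RNAs, 28 are box H/ACA RNAs and 0 are spliceosomal RNAs. The RefSeq annotation of the R64 assembly, the build named sacCer3 elsewhere, holds a small nucleolar RNA gene for each of the 41 names.

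RNA was sequenced from haploid BY4741, a MATa laboratory strain that carries the his3-, leu2-, met15- and ura3- markers, in 4 genotypes of 2 replicate libraries each. Beside wild type there were the gene deletions set2∆ and eaf3∆ and the histone point mutation H3K36A, and the labels give the same marker genotype for each group. Cells were in mid-log growth in YPD, a rich glucose medium, at 30 °C, and total RNA was depleted of rRNA before stranded libraries were made. Set2 methylates lysine 36 of histone H3, H3K36A replaces that lysine by alanine, and the chromodomain of Eaf3 binds the methylated lysine. The values are RPKM (reads scaled to gene length and to the reads of the library), and each is the authors' mean over the libraries of a genotype. No spread between replicates can therefore be given, no difference was tested, and the read depth behind each mean is unknown. SET2, EAF3, HHT1 and HHT2 had 0 rows in the table as used here, so the genotypes were not checked on the altered genes.

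Small nucleolar RNAs guide the modification of other RNAs by base pairing. Box C/D RNAs, bound by the methyltransferase Nop1 with Nop56, Nop58 and Snu13, direct 2′-O-methylation. Box H/ACA RNAs, bound by the pseudouridine synthase Cbf5 with Nhp2, Nop10 and Gar1, direct pseudouridylation. A few members of both classes act in the cleavage of the rRNA precursor rather than, or besides, modification. Most yeast genes of these RNAs are transcribed on their own by RNA polymerase II. Others lie in introns, from which the RNA is freed after splicing and debranching, or in clusters that give 1 precursor cut by the nuclease Rnt1.

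Which members could be compared differed with class and with gene length, and these go together, since the shortest annotated box H/ACA gene has 161 bases. Of 76 annotated small nucleolar RNA genes, 41 had a row, 28 of the 29 in the box H/ACA class and 13 of the 47 in the box C/D class. None of the 6 annotated spliceosomal RNA entries (LSR1, SNR6, SNR7-L, SNR7-S, SNR14 and SNR19) had a row as used here, so the planned comparison with spliceosomal RNAs was not made. SNR7-L and SNR7-S overlap on the same strand and are forms of the same RNA. Of 28 small nucleolar RNA genes of at most 100 bases, 0 had a row. Of 9 genes of 101 to 120 bases, 5 had one, and of 39 longer genes 36 did. The box C/D genes without a row had a median length of 91.5 bases, against 126 for those with one. The shortest genes of the genome followed the same count, since 0 of 317 annotated genes of any kind of at most 100 bases had a row. The 3 longer small nucleolar RNA genes without a row were SNR17A and SNR17B, the copies of the U3 RNA, and SNR80. Above 120 bases, 8 box C/D genes thus had a row and the U3 copies had none, beside 28 of the 29 box H/ACA genes. The lowest RPKM of any named gene was 1.07, 1.01, 1.01 and 1.00 in wild type, set2∆, H3K36A and eaf3∆. Whether genes with a lower value in any genotype were left out of the table was not tested.

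Among the listed members, the level also differed with length. The 5 members under 120 bases, all box C/D, had a wild-type RPKM of 1.32 to 72.7, while the 36 longer ones had 87.4 to 36388. Spearman's rho of length with wild-type RPKM was 0.58 over the 41 members, 0.85 over the 13 box C/D members and 0.49 over the 28 box H/ACA members, all points from the same wild-type mean. RPKM is a level per length, but the division by length does not correct for short RNAs that a library does not hold. The sources used here do not give the size range of the sequenced fragments, and the part of length in these levels was not tested. Abundance below means RPKM, and members of unlike length may not be comparable by it.

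**Figure D1:**
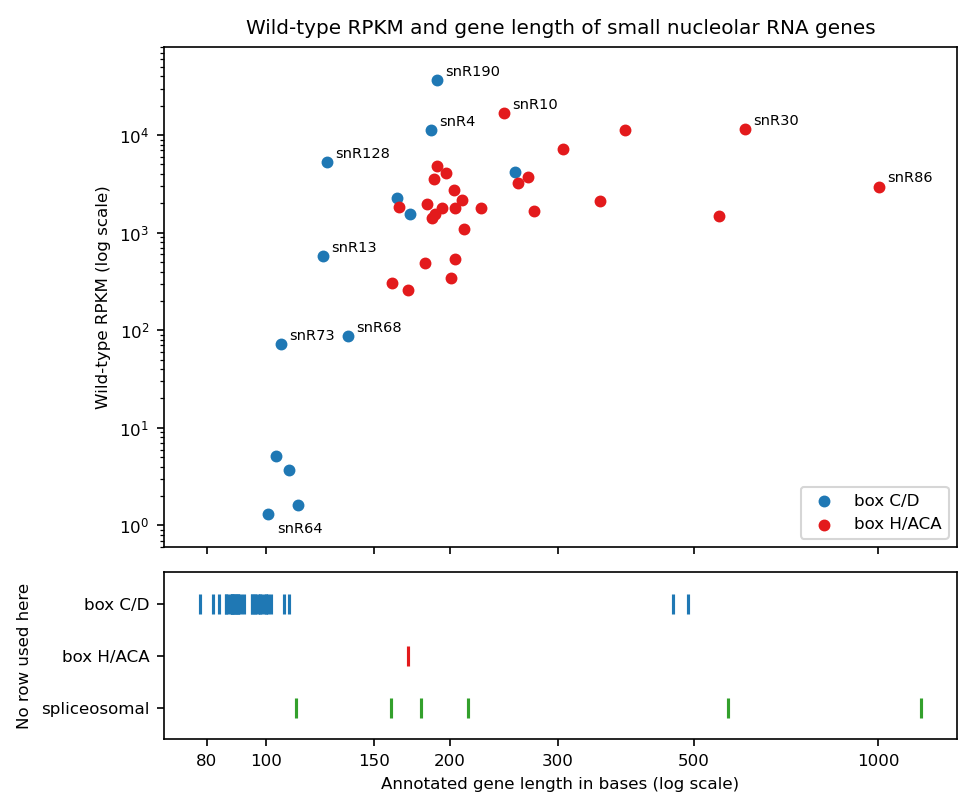
The upper panel plots wild-type RPKM against annotated gene length for the 41 listed members, both on log axes, with box C/D in blue and box H/ACA in red. The lower panel marks the lengths of the annotated genes for which no row was used. The 5 listed members under 120 bases lie at 72.7 or below, and most box C/D genes without a row are shorter than any listed member.

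Values below are in the order wild type, set2∆, H3K36A and eaf3∆. The RNAs that act in rRNA processing were among the most abundant. snR190, a box C/D RNA (chromosome X, 139761 to 139950), had an RPKM of 36388, 42539, 47028 and 44256, and ranked at 2 among all genes in wild type. It shares a precursor with snR128, the essential U14 RNA of box C/D (chromosome X, 139566 to 139691), which had 5305, 6639.9, 7859 and 6723. The quotient of snR190 over snR128 was 6.86, 6.41, 5.98 and 6.58, highest in wild type and lowest in H3K36A. snR30, an essential box H/ACA RNA needed for making 18S rRNA (chromosome XII, 198784 to 199389), had 11588, 12772, 14641 and 14847. Wild type was the lowest genotype for each of these 3.

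snR10, a box H/ACA RNA that acts in rRNA processing and also guides pseudouridylation of 25S rRNA (chromosome VII, 345986 to 346230), had 16742, 24049, 24335 and 22720.1. It lay at rank 6 of all genes in wild type. YGL088W, a gene on the same strand that shares 216 bases with snR10, had 11049, 15885, 16116 and 15023. The reads of the pair cannot be separated here, and the values of YGL088W followed those of snR10.

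The box C/D RNAs snR4 and snR45 guide the acetylation of 18S rRNA, a modification made outside the usual methylation. snR4 had an RPKM of 11313, 16175, 12756 and 16379.6, and snR45 had 1565, 1928, 2220.4 and 2099.7. snR4 was near wild type in H3K36A and higher in both deletions, whereas snR45 was highest in H3K36A. The quotient of snR4 over snR45 was 7.23, 8.39, 5.74 and 7.80.

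The other box C/D RNAs guide methylation of rRNA. snR63 had 4164, 5222, 5611 and 5071. snR70, from a cluster with snR41 and snR51, had 2272, 3078, 3398 and 2982. snR13 had 578, 959.7, 815 and 1014. For these 3 members each mutant was above wild type. The remaining box C/D members were far less abundant: snR68 had 87.4, 67.2, 105 and 92.7, and snR73 had 72.7, 71.6, 54.3 and 66.8. snR73 is the single member compared whose highest level was in wild type.

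The box H/ACA guides spanned a range from 262 to 16742 in wild type, with a median of 1898, against 2455, 2583 and 2496 in set2∆, H3K36A and eaf3∆. The most abundant after snR10 and snR30 were snR37, a guide for 25S rRNA, with 11239, 13817, 15406 and 13514, and snR83, a guide for 18S rRNA, with 7130.2, 9788, 11470.3 and 9093. The least abundant were snR85, with 262, 331, 423 and 329, snR161, with 307, 368, 402 and 422, and snR81, with 345, 454, 512 and 420.2. In these 5 members wild type was the lowest genotype.

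The 5 most abundant members in wild type, snR190, snR10, snR30, snR4 and snR37, held 55.9% of the summed RPKM of all 41, and 56.0%, 55.0% and 56.7% in the mutants. The 41 members together held 13.8% of the RPKM sum over all genes in wild type, 16.1% in set2∆, 17.2% in H3K36A and 16.8% in eaf3∆. Box C/D members held 5.46%, 6.31%, 6.64% and 6.70%, and box H/ACA members 8.33%, 9.75%, 10.6% and 10.1%. As RPKM is relative to the sequenced total, more RNA of a member and less RNA of other genes cannot be told apart.

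**Figure D2:**
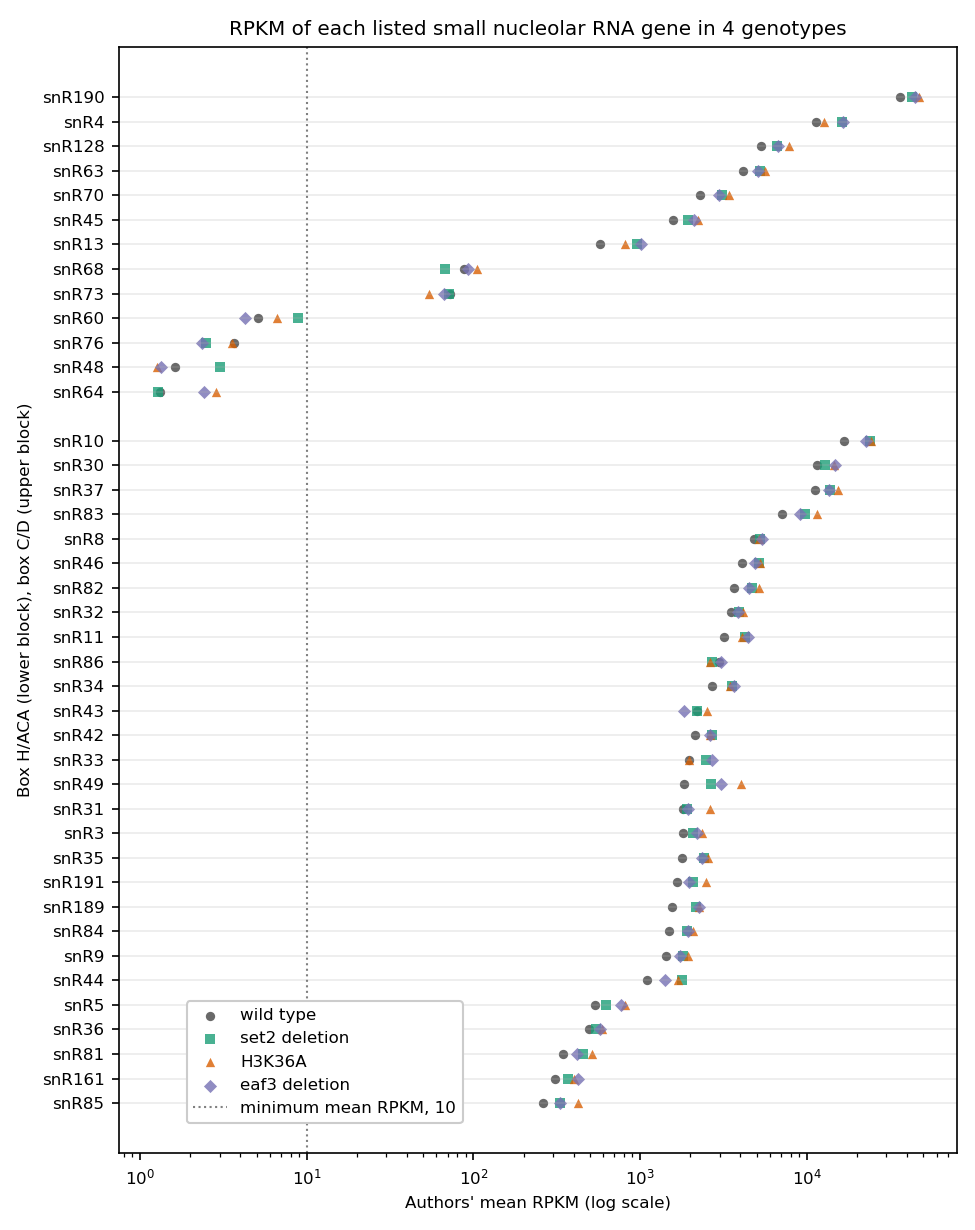
Each row is 1 of the 41 members and each symbol the authors' mean RPKM in 1 genotype, on a log axis, with the box C/D class above and the box H/ACA class below. The dotted line marks an RPKM of 10. The symbols of a row lie close together, wild type is the leftmost symbol in most rows, and 4 box C/D members lie left of the line.

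Ratios to wild type were taken as log2((mutant + 1)/(wild type + 1)) for the 3657 genes whose RPKM, averaged over the 4 genotypes, was 10 or more. Of the members, 37 passed this minimum, 9 of 13 in box C/D and 28 of 28 in box H/ACA. It did not decide any member by a single genotype: snR73, the lowest member compared, had at least 54.3 in every genotype, and snR60, the highest of those left out, at most 8.92. The 3 mutants are set against the same wild-type mean, so the comparisons below share it. Wild type was the lowest genotype for 33 of the 37, against 17.2% of all genes compared, a count in which 1 shared mean enters every comparison. Under quantile normalization, which gives each rank the same value in every genotype, 29, 30 and 31 members lay above wild type in set2∆, H3K36A and eaf3∆, fewer than the counts by RPKM below. There snR10 in H3K36A and eaf3∆, snR30 in each mutant, snR37 in set2∆ and eaf3∆, snR4 in H3K36A, and snR31 and snR43 in set2∆ were below wild type although their RPKM was above it, and snR73 in set2∆ and eaf3∆ was above although its RPKM was below. snR190 had rank 2 in every genotype and so the same quantile value. On the quantile scale the median log2 ratio of all genes compared was 0.04, 0.02 and 0.05, above 0 in each mutant. The shares of all genes above wild type given below are by RPKM and do not apply to the quantile counts.

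In set2∆, 34 of the 37 members had a higher RPKM than in wild type, against 27.5% of all genes compared. The median log2 ratio of the members was 0.34, a fold of 1.26, while that of all genes compared was -0.23. The quartiles of the members were 0.21 and 0.41, and those of all genes -0.53 and 0.03. Among the 168 genes outside the small RNAs whose RPKM averaged 1000 or more, a group that includes YGL088W, the median was 0.06 and 99 were above wild type. Of the members, 0 were at least 2-fold higher, against 1.26% of all genes, and 0 were at least 2-fold lower, against 6.43%. The highest log2 ratios were those of snR13 (0.73), snR44 (0.70), snR49 (0.53), snR10 (0.52) and snR4 (0.52). The lowest were those of snR68 (-0.38), snR86 (-0.13), snR73 (-0.02), snR43 (0.01) and snR31 (0.08). The 3 members below wild type were thus snR68, snR86 and snR73.

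In H3K36A, 35 of the 37 members were above wild type, against 31.6% of all genes compared. Their median log2 ratio was 0.44, a fold of 1.35, with quartiles of 0.30 and 0.54, against a median of -0.32 and quartiles of -0.80 and 0.12 over all genes. The abundant genes outside the small RNAs had a median of -0.12, with 63 of 168 above wild type. Of the members, 1 was at least 2-fold higher, against 3.91% of all genes, and 0 were at least 2-fold lower, against 18%. That member was snR49, a box H/ACA guide for sites in both 18S and 25S rRNA (chromosome XIV, 716120 to 716284). Its RPKM was 1836, 2646, 4042 and 3039, so H3K36A was the highest genotype and wild type the lowest, and its log2 ratios were 0.53, 1.14 and 0.73 in set2∆, H3K36A and eaf3∆. The next highest in H3K36A were snR85 (0.69), snR83 (0.69), snR44 (0.61) and snR5 (0.60). The lowest were snR73 (-0.42), snR86 (-0.18), snR33 (0.01), snR8 (0.10) and snR4 (0.17).

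In eaf3∆, 35 of the 37 members were above wild type, against 23.6% of all genes compared. Their median log2 ratio was 0.33, a fold of 1.26, with quartiles of 0.26 and 0.44, against a median of -0.36 and quartiles of -0.77 and -0.03 over all genes. The abundant genes outside the small RNAs had a median of -0.08, with 71 of 168 above wild type. Of the members, 0 were at least 2-fold higher, against 1.53% of all genes, and 0 were at least 2-fold lower, against 16.0%. The highest ratios were those of snR13 (0.81), snR49 (0.73), snR4 (0.53), snR5 (0.52) and snR189 (0.52). The lowest were those of snR43 (-0.25), snR73 (-0.12), snR86 (0.04), snR68 (0.08) and snR31 (0.11).

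Relative to the median gene of each comparison, 36, 36 and 37 of the 37 members lay above it in set2∆, H3K36A and eaf3∆. On this relative scale 0, 3 and 2 were at least 2-fold higher, against 1.83%, 6.95% and 3.55% of all genes. The 3 in H3K36A were snR49 (1.45), snR85 (1.01) and snR83 (1.00), and the 2 in eaf3∆ were snR13 (1.17) and snR49 (1.08).

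**Figure D3:**
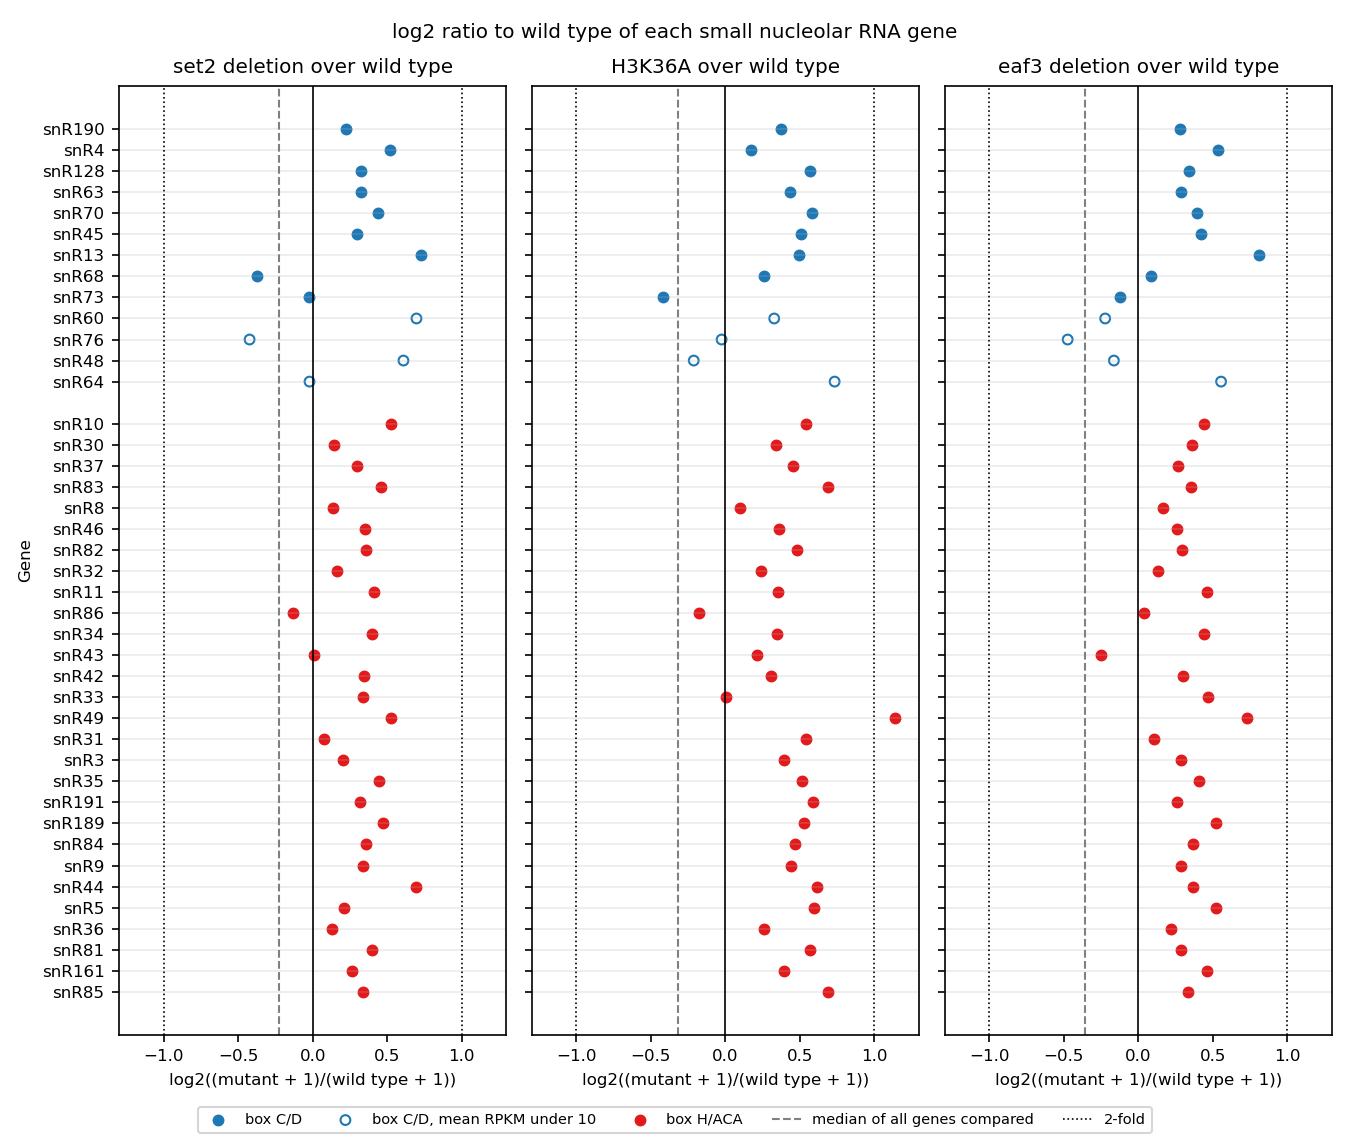
The 3 panels plot the log2 ratio to wild type of each of the 41 members in set2∆, H3K36A and eaf3∆, with box C/D in blue, box H/ACA in red and the 4 members of low RPKM as open symbols. The solid line marks no difference, the dashed line the median of all genes compared and the dotted lines a 2-fold difference. Most filled symbols lie between 0 and 0.8, and snR49 in H3K36A is the point past 2-fold.

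The medians of both classes were above 0 in each mutant. In set2∆ the median log2 ratio was 0.32 for the 9 box C/D members and 0.34 for the 28 box H/ACA members, in H3K36A 0.43 and 0.45, and in eaf3∆ 0.34 and 0.32. Under quantile normalization box C/D lay lower, with 0.16 and 0.27 in set2∆, 0.32 and 0.39 in H3K36A, and 0.21 and 0.40 in eaf3∆, which turns the order of the classes in eaf3∆. The ranges overlapped in each mutant, for example from -0.42 to 0.58 against -0.18 to 1.14 in H3K36A. Box C/D members above wild type numbered 7, 8 and 8 of 9, and box H/ACA members 27 of 28 in each mutant. The summed RPKM of the box C/D members was 1.24, 1.29 and 1.27 times that of wild type, and that of the box H/ACA members 1.26, 1.35 and 1.26 times. The sum over genes outside the small RNAs was 1.01, 0.965 and 0.964 times.

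By the rRNA they act on, the 7 guides for methylation or pseudouridylation of 18S rRNA alone had medians of 0.34, 0.54 and 0.35. The 2 guides for 18S acetylation, snR4 and snR45, were a group of their own, with 0.41, 0.34 and 0.48. The 22 guides for 25S rRNA alone had 0.33, 0.38 and 0.28. The 3 guides for sites in both rRNAs, snR44, snR49 and snR189, had medians of 0.53, 0.61 and 0.52, and snR30, snR128 and snR190, which act in processing, 0.23, 0.37 and 0.34. Each member was put in 1 group, and snR10, which also acts in processing, was counted with the 25S guides. Its log2 ratios, 0.52, 0.54 and 0.44, were above the medians of the processing group. snR189 had an RPKM of 1564, 2173, 2259 and 2242, with wild type the lowest. The 18S guide snR31 had 1808, 1909.6, 2636 and 1949, with H3K36A the highest and the other 3 values close to each other. Its neighbour in the opposite orientation, snR5, a guide for 25S rRNA, had 537, 623, 812 and 771.

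A few guides had another order of genotypes. snR33, a guide for 25S rRNA, had an RPKM of 1959.5, 2481, 1968 and 2710.4, level with wild type in H3K36A and higher in both deletions, the order also seen in snR4. snR43 had 2186, 2198, 2528 and 1839, the lowest value in eaf3∆. snR86, the longest member at 1004 bases, had 2972, 2715, 2624 and 3046, within a factor of 1.16 across the 4 genotypes. snR8, another guide for 25S rRNA, had 4798, 5267, 5138 and 5379.96, within a factor of 1.12.

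Further guides for 25S rRNA had wild type as their lowest genotype. snR46 had an RPKM of 4059, 5185, 5204 and 4856, snR82 had 3679, 4714, 5138 and 4509, and snR32 had 3520.5, 3946, 4157 and 3852. snR11 had 3203, 4254, 4083 and 4412, snR34 had 2708, 3573, 3449 and 3671, and snR42 had 2134, 2704, 2635 and 2629.98. snR3 had 1802, 2078, 2367 and 2194, snR84 had 1498, 1917, 2069.9 and 1932, and snR9 had 1423, 1800.5, 1927 and 1737. These 9 guides spanned 1423 to 4059 in wild type. The 18S guides snR35 (1782, 2429, 2543 and 2362) and snR36 (495, 541, 593 and 576) also had their lowest value in wild type.

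Intronic members bear on splicing, because their RNA comes from the excised intron of a host gene. Of 8 intronic genes, 2 had a row. snR44 (chromosome XII, 856710 to 856920) lies in an intron of RPS22B, a gene of the small ribosomal subunit, and had an RPKM of 1098, 1779, 1679 and 1418. RPS22B itself had 1435, 1954, 1476 and 1376. The quotient of snR44 over its host was 0.765, 0.91, 1.14 and 1.03, so wild type was the lowest of the 4. The sources used here do not say whether reads of the intron were counted for the host. snR191, in an intron of NOG2, had 1654, 2063, 2486 and 1977, and no value of NOG2 was used here. The log2 ratios of snR191 were 0.32, 0.59 and 0.26, against 0.70, 0.61 and 0.37 for snR44, within the range of the 31 members transcribed on their own, which had medians of 0.34, 0.43 and 0.33.

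Of the 17 genes in clusters, 5 had a row, among them snR190 with snR128 and snR73 with snR76 of a cluster of 7 genes on chromosome XIII. The 4 of them compared had medians of 0.27, 0.47 and 0.31, and of 0.11, 0.14 and 0.15 under quantile normalization. Within the cluster on chromosome XIII, wild-type RPKM was 72.7 for snR73 (106 bases) but 3.66 for snR76 (109 bases). Both are of the lengths at which some annotated genes had no row, and snR76 was under the minimum mean. Whether the cells held unlike amounts of these RNAs, or the libraries held them unequally, was not tested.

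The 4 members under the minimum were snR48, snR60, snR64 and snR76, all box C/D guides for 25S rRNA of 101 to 113 bases. snR60 had an RPKM of 5.12, 8.92, 6.68 and 4.25, snR76 had 3.66, 2.48, 3.58 and 2.36, snR48 had 1.63, 3.0, 1.27 and 1.34, and snR64 had 1.32, 1.28, 2.85 and 2.41. The lowest values of snR48 and snR64 lie close to the lowest value in the table, 1.00, while snR60 had 4.25 or more. The 4 members had no common order of genotypes.

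The mutants were also set against each other. H3K36A was the highest genotype for 25 of the 37 members, eaf3∆ for 9, set2∆ for 2 and wild type for 1, against 23.9%, 6.23%, 8.78% and 61.1% of all genes compared. H3K36A was above set2∆ for 27 members, against 37.6% of all genes compared, with a median log2 difference of 0.12 against -0.11 over all genes. H3K36A was above eaf3∆ for 27 members, against 54.4% of all genes, with medians of 0.10 and 0.03. eaf3∆ was above set2∆ for 20 members, against 26.3% of all genes, with medians of 0.02 and -0.14. No member compared differed by 2-fold between mutants (0 in each pair). The largest differences of H3K36A over set2∆ were those of snR68 (0.63) and snR49 (0.61), and the lowest that of snR73 (-0.39).

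The genes of the proteins that bind and mature these RNAs were set beside all genes compared, of which 2650, 2500 and 2793 of 3657 were below wild type in set2∆, H3K36A and eaf3∆. Of the box C/D core genes, NOP56 had an RPKM of 238, 97.8, 57.4 and 91.0 and NOP58 had 198, 98.5, 59.5 and 87.4. NOP1, the methyltransferase, had 457, 456, 312 and 389.9, and SNU13 had 846, 883, 576 and 704. At least 2-fold lower were 1, 2 and 2 of these 4 genes, against 6.43%, 18% and 16.0% of all genes. NOP58 in set2∆ lay just short of 2-fold on the scale with the pseudocount. Relative to the median gene the counts were 1, 2 and 1, against 2.90%, 9.68% and 7.03% of all genes, since NOP58 in eaf3∆ was then at -0.81. Of the box H/ACA core genes with a row, CBF5 had 141, 60.1, 40.6 and 58.1, GAR1 209, 219, 135 and 179, and NOP10 276, 301, 178 and 178, so 1 of 3, CBF5, was at least 2-fold lower in each mutant, beside the same shares of all genes. Relative to the median gene CBF5 had log2 ratios of -0.99, -1.46 and -0.91 and was past 2-fold in H3K36A alone. No value of NHP2 was used here. SNU13, GAR1 and NOP10 were above wild type in set2∆. Relative to the median gene, NOP1, SNU13 and GAR1 lay above it in set2∆ and eaf3∆ and below it in H3K36A, while NOP56, NOP58 and CBF5 lay below it in each mutant.

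Of 17 genes of maturation factors, 15 had a row and 13 passed the minimum mean. In set2∆ 0 of 13, in H3K36A 4 and in eaf3∆ 1 were at least 2-fold lower, beside 6.43%, 18% and 16.0% of all genes, and 0 were at least 2-fold higher in any mutant, with medians of -0.46, -0.69 and -0.60. Relative to the median gene 0 of 13 were at least 2-fold lower in each mutant, against 2.90%, 9.68% and 7.03% of all genes. The medians on that scale were -0.24, -0.37 and -0.24. The 4 in H3K36A were RRP6, the nuclear exosome nuclease that trims the 3′ end (56.6, 32.8, 24.3 and 29.95), RVB1, an ATPase of box C/D assembly (73.4, 46.1, 29.0 and 35), SHQ1, a chaperone of Cbf5 (19.4, 11.5, 8.12 and 11.2), and TGS1, which trimethylates the cap (19.5, 12.6, 8.79 and 11.6). RVB1 was also the 1 in eaf3∆. SHQ1 and TGS1 were under 10 in H3K36A, so these calls lie close to the minimum. RSA1 did not pass the minimum mean and was at least 2-fold lower in each mutant (11.4, 3.24, 1.54 and 2.01). DBR1 did not pass either and was not past 2-fold in any. NRD1 (74.98, 56.3, 41.5 and 49.2) and NAB3 (59.1, 37.4, 36.2 and 32.5), whose proteins end transcription of these genes, and TBF1 (40.9, 39.6, 40.5 and 38.3), which binds many of their promoters, were not past 2-fold. Of the 8 intron hosts, 7 had a row, with medians of -0.01, -0.05 and -0.35, which relative to the median gene were 0.21, 0.27 and 0.0047. EFB1, host of snR18, was at least 2-fold lower in H3K36A and eaf3∆ (3053, 1746, 1068 and 1324), and relative to the median gene in H3K36A alone, with -0.85 in eaf3∆.

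**Figure D4:**
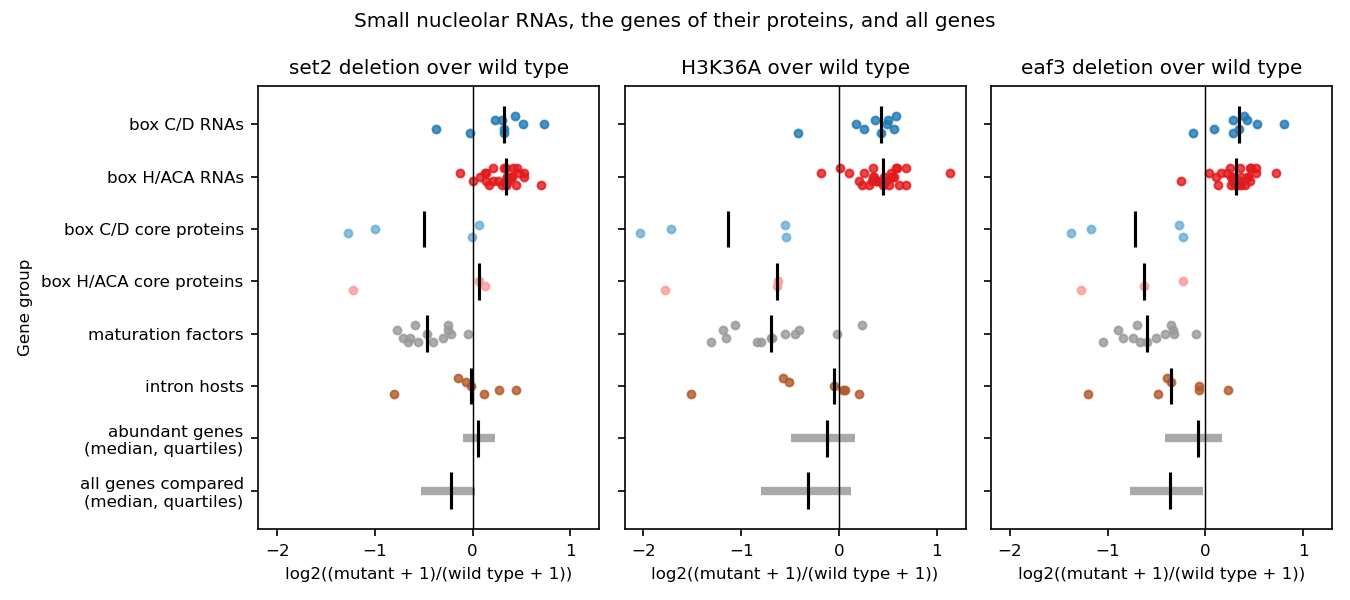
The 3 panels plot log2 ratios to wild type of the members compared, of the genes of core proteins, maturation factors and intron hosts as points with the median as a black bar, and of abundant genes and all genes compared as a median with a grey bar for the quartiles. The medians of both RNA classes lie right of 0 in each mutant, between 0.32 and 0.45, and those of the maturation factors left of 0, between -0.69 and -0.46.

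Genes just downstream of the members on the same strand, which transcription past the end of a small nucleolar RNA gene would enter, were listed within 500 bases. Of 14 such genes, 13 had a row and 11 passed the minimum mean. In set2∆, H3K36A and eaf3∆, 0 of 11 were at least 2-fold higher, 1, 4 and 1 were at least 2-fold lower, and the medians were -0.25, -0.12 and -0.37. All genes compared had medians of -0.23, -0.32 and -0.36, and the share past 2-fold was 1.26%, 3.91% and 1.53% upward and 6.43%, 18% and 16.0% downward. Relative to the median gene, 0, 1 and 1 of the 11 were at least 2-fold lower, against 2.90%, 9.68% and 7.03% of all genes. TRS31, 280 bases past snR13, had an RPKM of 37.1, 31.1, 40.2 and 27.4. Of the 11, GAL11, 394 bases past snR81, was the gene at least 2-fold lower in each mutant (22.9, 9.90, 7.22 and 7.93). GAL11 was under 10 in each mutant and passed the minimum mean through its wild-type value, which also enters its ratios. USE1, 287 bases past snR82, did not pass and was also at least 2-fold lower in each mutant (14.2, 5.39, 3.08 and 3.21). CTO1, past snR33, did not pass either and was not past 2-fold. RPS14A, past snR189, had 4950, 6258, 5569 and 5975, above wild type in each.

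The genes outside the members whose profile over the 4 genotypes lay closest to the members' median, by Euclidean distance of centred log2 values, were KTR1, IMG1, PMT4, AIM3 and PMT2, at 0.0444 to 0.0622. The members lay at 0.0149 to 0.62, with a median of 0.16, and the other 3620 genes compared had a median of 0.72. Of the other structural RNAs, SCR1 of the signal recognition particle had an RPKM of 91207, 123618, 138521 and 123865, NME1 of RNase MRP 4699, 5364, 5481 and 5440.1, and RPR1 of RNase P 5063, 5738, 7875 and 5019.6. SCR1 and NME1 were lowest in wild type, as most members were, while RPR1 was lowest in eaf3∆.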

How the data were processed

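Of 17 libraries, the 8 of RNA enter the table used, and the 9 of DNA were not analysed here. The authors deposited RPKM in 4 columns that are averages of a genotype, per the file headers. CASAVA, TopHat2 2.0.14 and the build sacCer3 are listed, per the submitters' processing notes. The sources used here do not give the tool that computed RPKM, its gene models, use of strand, read total or treatment of multiply mapped reads. Reads of short RNAs depend on library fragment size, and RPKM on all other RNAs in the library.

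Of 5331 lines below the header, 3 were empty and 2 were named R, which names no gene, and these were left out. All 41 members matched RefSeq by name, and strands were read from the systematic names. Computation used Python 3.11.15, pandas 2.3.3 and numpy 2.4.6, with a pseudocount of 1 and a minimum mean RPKM of 10, and was tested on simulated data. The planned limma fit needed a column per library and was not run. Classes came from textbook knowledge. Members and lists were chosen with earlier results of these data known. Named genes were every member, with most room for the RNAs of processing and acetylation, the intronic members, the extremes of level in each class and the 5 highest and 5 lowest ratios per mutant, plus list genes past 2-fold. NOP1, SNU13, GAR1, NOP10, NRD1, NAB3, TBF1, RSA1, DBR1 and the downstream genes named were chosen after their values were seen.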

Additional observations from a re-analysis of the deposited data

How the results depend on the processing

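No paired analysis was possible because the table holds 1 averaged column per genotype, and for the same reason no replicate could be left out. A median was counted as moved where it shifted by over 0.2 on the log2 scale, and a count or share where it changed by over 1.5 times. Of 245 values under alternatives, 215 stayed within these bounds and 30 moved. The bounds apply to values of the members and not to their contrast with all genes. Under quantile normalization the median of the members was 0.26, 0.37 and 0.37 in set2∆, H3K36A and eaf3∆. That of all genes compared was then 0.04, 0.02 and 0.05, in place of -0.23, -0.32 and -0.36, so the contrast was smaller. Of the medians over members and the ratios of snR49, 0 changed sign, and counts and shares cannot do so. Some values could not move: the box H/ACA median, for example, has no member under 120 bases to lose. Single members did change sign, under quantile normalization as given above and snR43 in set2∆ when rescaled. Ratios relative to the median gene moved the medians of the members, box C/D and box H/ACA to 0.56, 0.55 and 0.56 in set2∆, 0.75, 0.75 and 0.76 in H3K36A, and 0.69, 0.70 and 0.67 in eaf3∆, and the members at least 2-fold higher to 3 in H3K36A and 2 in eaf3∆. Quantile normalization gave 1 such member in eaf3∆, snR13, and moved the median of the members in clusters in H3K36A from 0.47 to 0.14 and that of the intronic members in eaf3∆ from 0.31 to 0.54. Weighted by gene length, the members' share of the sum was 3.98%, 4.87%, 5.29% and 5.05% in wild type, set2∆, H3K36A and eaf3∆. Pseudocounts of 0.1 and 5, a minimum mean RPKM of 1, rescaling to the sum outside small RNA genes, and leaving out snR190 or intronic members stayed within these bounds, as did leaving out members under 120 bases, which was added after seeing the data, like all alternatives for the count above wild type, the medians by location and snR49. Of the 37 members, 33, 35 and 35 were above wild type in set2∆, H3K36A and eaf3∆ when rescaled and 29, 30 and 31 under quantile normalization. With a minimum mean of 1, 36, 37 and 36 of 41 were. Read depth is unknown, so no counting error can be given for members of low RPKM.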
